A study of Danio rerio with 3 samples.

Results

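The heat shock proteins of the cytosol and the mitochondria were followed through the liver of larval zebrafish on a high-cholesterol diet, with and without the plant alkaloid berberine (BBR). The family was taken as 10 named genes: the heat shock transcription factor hsf1, the HSP70 genes hsp70l and hspa8, the J protein gene dnajb1b, the HSP90 genes hsp90aa1.1, hsp90aa1.2 and hsp90ab1, the small heat shock protein gene hspb1, and the mitochondrial chaperonin genes hspd1 and hspe1. Every probe whose RefSeq accession mapped to one of these symbols was kept. This gave 33 of the 43603 non-control probes and 9 of the 10 genes, since no probe had an accession that mapped to hsf1, which was not analysed here.

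All fish were AB strain larvae, given no food to 5 days post fertilization (dpf) and then fed for 10 days, to 15 dpf. The HCD+BBR group received the high-cholesterol diet (HCD, 180 mg of AP100 larval food with 4% cholesterol per 100 fish per day) together with 5 μM berberine. The HCD group received that diet alone, and the control group received 30 mg of AP100 per 100 fish per day with no added cholesterol, so that HCD and control differ in the amount of food as well as in cholesterol. Liver RNA of each group was hybridised to 1 single-colour Agilent zebrafish array, and the labels used here do not say how many livers went into each. With 1 array per group no difference below has a replicate check or a p-value. A gene or probe is called different where the arrays differ at least 2-fold, the fold threshold that the study's methods use, and each count is set beside the share of all genes or probes past the same threshold.

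Heat shock proteins are molecular chaperones that bind unfolded or partly folded proteins and help them to fold, to reach their compartment or to be broken down. In the cytosol, J proteins hand clients to HSP70, which passes many of them on to HSP90, and small heat shock proteins hold unfolding proteins in a soluble state. In the mitochondrial matrix, HSP60 and its lid HSP10 form a folding chamber. The transcription factor HSF1 switches on the inducible members under heat and other stress that unfolds proteins, whereas other members are made at a high level in unstressed cells.

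Signals are given as the log2 of the processed intensity relative to the 75th percentile of all non-control probes of that array, so that 0 is the level of that percentile. All 33 probes of the family were well above background on all 3 arrays and none was saturated, with processed intensities between 247 and 68068 units. On 7 of the 33 probes the scanner software had marked a spot as an outlier on at least 1 array. Counts use the other 26 probes, and each gene is represented by its brightest probe with no such mark. Probes of 1 gene were hybridised with the same RNA and are not replicates of a diet. As a measure of technical scatter, the differences of several probes of 1 gene had an SD of 0.30 for HCD minus control, 0.32 for HCD+BBR minus HCD and 0.28 for HCD+BBR minus control on the log2 scale (6692 genes).

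Across the arrays, spots well above background made up 92.3% of the HCD+BBR array, 88.5% of the HCD array and 89.9% of the control array. Outlier marks stood on 20 spots of the HCD+BBR array, 1665 of the HCD array and 1510 of the control array. The HCD+BBR and control arrays lay on 1 slide and the HCD array on another. Slide and diet thus cannot be told apart in either comparison with the HCD array, while HCD+BBR against control is within 1 slide. The HCD+BBR array lay at position 4 of its slide, and the HCD and control arrays at position 1 of theirs. Berberine therefore cannot be told apart from position, or from the fewer outlier marks, in either comparison with the HCD+BBR array. All 12 measured hepatocyte markers were well above background on every array. So were all 16 of skeletal muscle, 10 of lens, 14 of exocrine pancreas, 8 of intestine and 6 of erythrocytes. The RNA labelled liver thus also held transcripts of other tissues, and not as a trace. Summed linear signal, over unlike numbers of markers, was 433 for pancreas, 339 for muscle and 185 for hepatocyte on the HCD+BBR array. On HCD the sums were 400, 330 and 169, and on control 477, 364 and 178. Fewer cells of a type and less RNA per cell cannot be told apart in such bulk RNA.

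Signal was highest on the HCD+BBR array for 22 of the 26 probes of the family, or 84.6%, against 31.4% of the 35393 probes that were well above background on all arrays. The 4 exceptions were both probes of hspb1, highest on the HCD array, and 1 probe each of hspa8 and hsp90ab1, highest on the control array. By representing probe the exceptions were hspb1 and hspa8. Of the 26 probes, 9 were of hspa8, 4 of hsp90aa1.2 and 4 of hsp90ab1, so the share by probe weighs these genes more. The HCD array gave the lowest signal for 16 of the 26 probes, or 61.5%, beside 47.6% of those 35393 probes. The control array was lowest for the other 10, or 38.5%, beside 26.8%. Which of HCD and control was the lower depended on the scaling. HCD was above control on 10 of the 26 probes here, beside 37.4% of all probes. Under scaling by the array median it was above control on 15 of 26, beside 44.3%. No probe of the family was lowest on the HCD+BBR array, beside 25.6% of those 35393 probes.

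**Figure D1:**
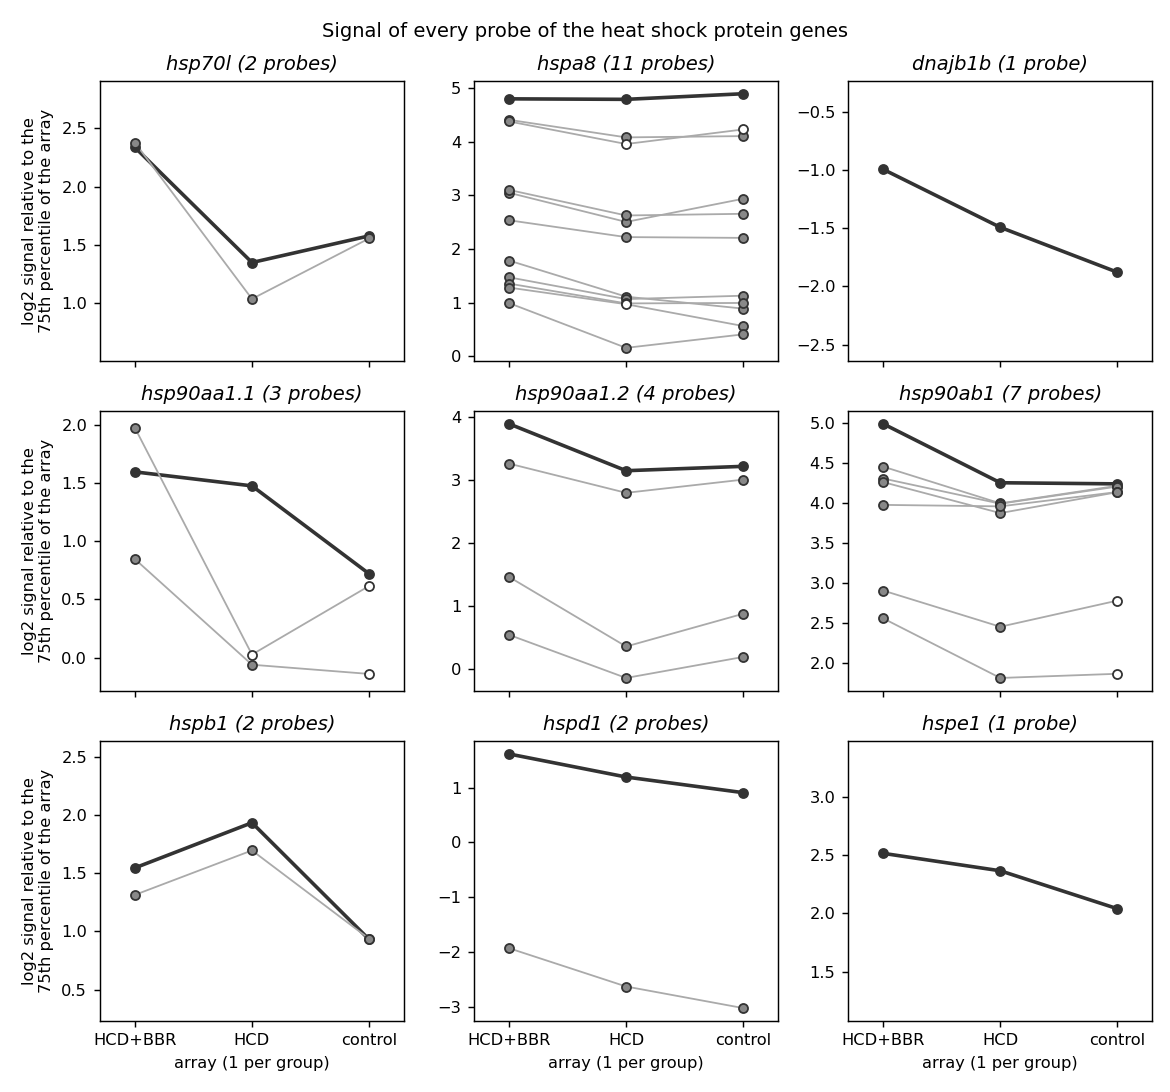
Log2 signal relative to the 75th percentile of the array (vertical axis, a span of its own in each panel) on the HCD+BBR, HCD and control arrays, with 1 line per probe. The dark line is the probe that represents the gene and open points carry an outlier mark. Most lines have their highest point at HCD+BBR, with both hspb1 lines highest at HCD.

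Among the HSP70 genes, hsp70l is the heat-inducible member whose promoter drives heat shock transgenes in zebrafish. Its brighter probe read 2.34 on the HCD+BBR array, 1.35 on HCD and 1.58 on control. Its other probe read 2.38 on the HCD+BBR array, 1.04 on HCD and 1.55 on control. Both probes put HCD+BBR highest and HCD lowest. HCD+BBR over HCD was 1.98-fold on the brighter probe, just short of the threshold, and 2.53-fold on the other, while HCD+BBR over control was 1.69-fold and 1.77-fold. HCD minus control was -0.23 and -0.52, each nearer to 0 than the difference with berberine.

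hspa8 encodes the constitutive HSC70, which folds new proteins and uncoats clathrin vesicles in unstressed cells, and it had 11 probes, 9 of them without an outlier mark. Its brightest probe hardly separated the arrays, at 4.80 on HCD+BBR, 4.79 on HCD and 4.90 on control. The other 8 probes without a mark were all higher with berberine, and HCD+BBR minus HCD ran between 0.31 and 0.83 over them. Over all 9 probes the median of HCD+BBR minus HCD was 0.41 with an SD of 0.24 between probes, and none reached 2-fold. HCD+BBR was above control on 8 of the 9 probes, with a median of 0.34 and a highest value of 0.90. HCD minus control had a median of -0.03 over the 9 probes and was positive on 2 of them. The value for hspa8 therefore depends on the probe that is read, and the brightest probe gave the smallest change with berberine of all 9.

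dnajb1b encodes a J protein related to mammalian HSP40, the partner that delivers clients to HSP70 and sets off its ATPase. Its single probe read -0.99 on the HCD+BBR array, -1.49 on HCD and -1.88 on control. The arrays thus stood in a stepwise order with control lowest. HCD+BBR was 1.84-fold over control, and neither step alone, 0.50 for HCD+BBR minus HCD and 0.39 for HCD minus control, came near 2-fold.

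The HSP90 genes hsp90aa1.1 and hsp90aa1.2 are neighbours with no annotated gene between them. The first is known in zebrafish for folding myosin in developing muscle. Only 1 of its 3 probes had no outlier mark, and this probe read 1.59 on the HCD+BBR array, 1.47 on HCD and 0.72 on control. Both diet arrays with cholesterol stood above control on it, by 0.87 with berberine and 0.75 without. The marked probes gave another order. One of them, marked on the HCD and control arrays, read 1.97 on HCD+BBR, 0.03 on HCD and 0.61 on control, and the other, marked on the control array, read 0.85 on HCD+BBR, -0.06 on HCD and -0.14 on control. HCD+BBR was the highest array on all 3 probes of hsp90aa1.1, but whether HCD stood above control was not settled by them. The muscle partners of this chaperone, picked out here after their values were seen, were both highest on HCD: unc45b gave 1.27 for HCD minus control and -0.68 for HCD+BBR minus HCD, and smyd1b gave 0.46 and -1.05 in the same comparisons. The 16 skeletal muscle markers, which include unc45b and smyd1b, had a median of -0.09 for HCD minus control, with 5 higher and 11 lower. For HCD+BBR minus control their median was -0.11, with 7 higher and 9 lower. The part of muscle in the hsp90aa1.1 signal was not tested.

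hsp90aa1.2, the neighbouring copy, had 4 probes, all without a mark, and all 4 were highest on HCD+BBR and lowest on HCD. The brightest read 3.89 on the HCD+BBR array, 3.15 on HCD and 3.22 on control. The third in brightness read 1.46 on HCD+BBR, 0.36 on HCD and 0.88 on control, which is 2.15-fold for HCD+BBR over HCD. HCD+BBR minus HCD ran between 0.46 and 1.1 over the 4 probes and HCD+BBR minus control between 0.25 and 0.67. HCD minus control ran between -0.52 and -0.07. Probe sequences were not used here, so signal shared between the neighbouring copies was not tested.

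hsp90ab1 encodes the constitutive HSP90 beta, an abundant chaperone of kinases and steroid receptors. Its brightest probe read 4.99 on the HCD+BBR array, 4.25 on HCD and 4.24 on control. This is 1.67-fold for HCD+BBR over HCD, with HCD and control alike on this probe. The other 3 unmarked probes gave smaller differences from HCD, between 0.02 and 0.39. Against control they lay between -0.16 and 0.13, below the scatter between probes of a gene. The difference between HCD+BBR and HCD in hsp90ab1 was thus about as large as in hsp90aa1.2 on its brightest probe and smaller on the rest.

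The small heat shock protein gene hspb1, whose product holds unfolding proteins and binds the actin cytoskeleton, had a pattern of its own in the family. Its brighter probe read 1.55 on the HCD+BBR array, 1.93 on HCD and 0.93 on control. Its other probe read 1.31 on HCD+BBR, 1.70 on HCD and 0.94 on control. Both probes were highest on the HCD array and lowest on the control array. HCD minus control was 1.00 on the brighter probe, which is 2.0-fold and at the threshold, and 0.76 on the other. HCD+BBR minus HCD was -0.39 and -0.38, so that with berberine both probes lay between the other arrays. By representing probe, hspb1 had the widest range over the 3 arrays of the 9 genes, at 1.00 beside 0.99 for hsp70l, but by the mean over probes hsp70l had the wider one, with 1.17 for HCD+BBR minus HCD against 0.88 for hspb1 in HCD minus control. The 5 genes closest to it in both differences, out of 12311 well above background on all 3 arrays, were the spermidine synthase gene srm, galnt6, tpbg, cyp2x10.2 and il4r.1, at distances of 0.01 to 0.02 on the log2 scale. With 3 arrays such a likeness rests on 2 differences only.

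The mitochondrial chaperonin genes hspd1 (HSP60) and hspe1 (HSP10) are neighbours as well, and they shared the stepwise order of dnajb1b. The brighter probe of hspd1 read 1.61 on the HCD+BBR array, 1.19 on HCD and 0.91 on control. Its other probe was far dimmer and read -1.93 on HCD+BBR, -2.63 on HCD and -3.02 on control, with HCD+BBR 2.13-fold over control. The single probe of hspe1 read 2.52 on the HCD+BBR array, 2.37 on HCD and 2.04 on control. All 3 probes of the chaperonin were thus lowest in control and highest with berberine. HCD minus control was 0.29 and 0.39 for hspd1 and 0.33 for hspe1, and HCD+BBR minus HCD was 0.42 and 0.70 for hspd1 and 0.15 for hspe1. The SD between probes of a gene was 0.30 in the first comparison and 0.32 in the second. The 0.15 of hspe1 and the 0.29 of hspd1 lay below it, so the stepwise order rests partly on steps within that scatter.

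**Figure D2:**
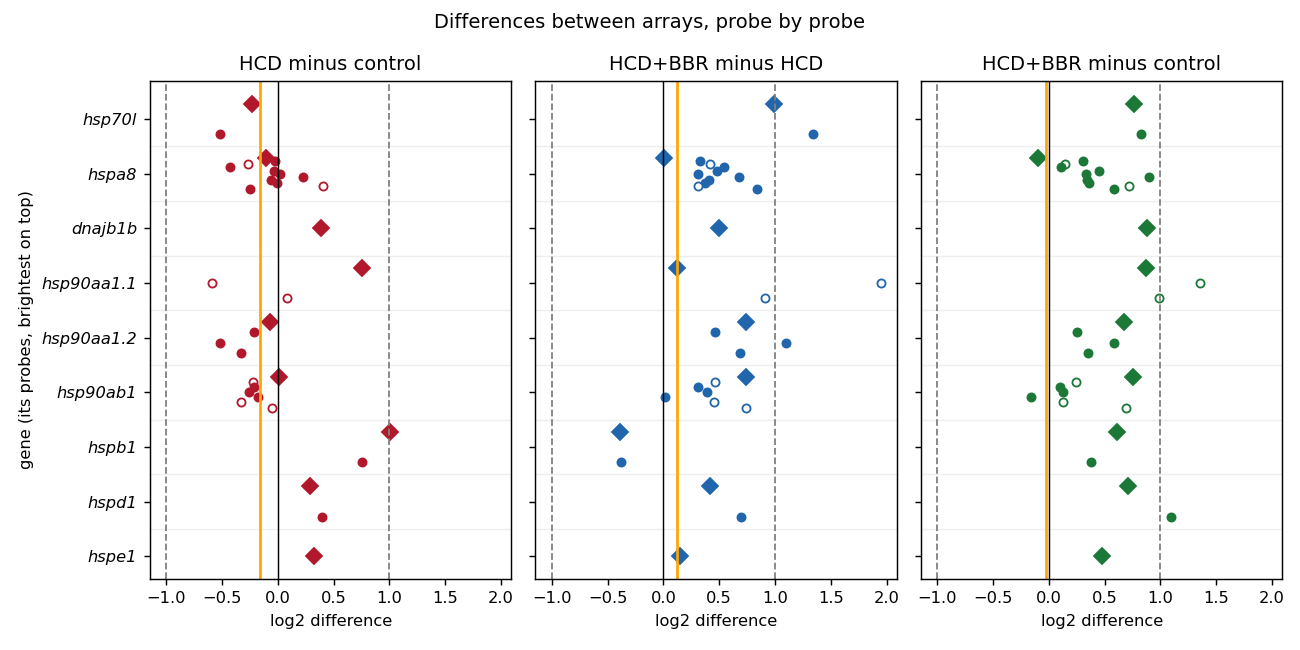
Log2 difference (horizontal axis) of every probe of the 9 genes for HCD minus control, HCD+BBR minus HCD and HCD+BBR minus control, with the probe that represents the gene as a diamond and probes with an outlier mark open. Dashed lines mark 2-fold and the orange line the median of all probes. With berberine 24 of 26 unmarked probes lay above 0 against HCD and 24 of 26 against control, with the hspb1 probes as the only ones below 0 against HCD.

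In HCD against control, the question was what the high-cholesterol diet did to these genes. By representing probe, 1 of the 9 genes, hspb1, was at least 2-fold higher, against 3.69% of 24547 genes compared, and 0 of 9 were 2-fold lower, against 4.07%. The split of all genes depended on the scaling, with 4.69% higher and 2.03% lower under quantile normalization. By probe, 1 of 26 was 2-fold higher, against 3.55% of all probes, and 0 of 26 lower, against 4.01%. A count of 1 among so few members cannot be set apart from that background. The median of the 9 genes was 0.29, with 6 of 9 higher in HCD, where all genes had a median of -0.16 and 37.8% were higher. Over the 26 probes the median was -0.05, beside -0.16 for all probes, and 10 of 26 were higher, or 38.5% beside 37.4% of all probes. This count depended on the scaling, with 15 of 26 probes higher under scaling by the array median (44.3% of all probes), cyclic loess (49.0%) and normexp (46.1%), and 12 of 26 under quantile normalization (45.7%). The family thus split in this comparison: hspb1, hspd1, hspe1, dnajb1b and the unmarked probe of hsp90aa1.1 were higher in HCD, and the probes of hsp70l and hsp90aa1.2 were lower.

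In HCD+BBR against HCD, the question was what berberine did on top of that diet. By representing probe, 0 of 9 genes were 2-fold higher, against 4.52% of 25024 genes, and 0 of 9 lower, against 1.32%, with hsp70l nearest to the threshold. Under quantile normalization 2.17% of all genes were 2-fold higher and 2.32% lower. By probe, 2 of 26 were 2-fold higher, 1 of hsp70l and 1 of hsp90aa1.2, against 4.2% of all probes, and 0 of 26 lower, against 1.31%. HCD+BBR was the higher array for 8 of 9 genes, with a median of 0.42 beside 0.10 for all genes, of which 59.4% were higher. The 8 include hspa8 at 0.01, and 7 of 9 genes lay above the median of all genes, a count that every alternative kept. Under scaling by the array median hspa8 (-0.13) and hsp90aa1.1 (-0.02) fell below 0, where all genes had a median of -0.04. By probe, HCD+BBR was the higher array for 24 of 26, or 92.3% beside 61.2% of all probes, with a median of 0.44 beside 0.12.

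In HCD+BBR against control, which shares 1 array with each of the other comparisons, 0 of 9 genes were 2-fold higher, against 3.81% of 25070 genes, and 0 of 9 lower, against 1.28%. By probe, 1 of 26 was 2-fold higher, the dim probe of hspd1, against 3.56% of all probes, and 0 of 26 lower, against 1.32%. By representing probe, HCD+BBR was higher for 8 of 9 genes, beside 46.2% of all genes. The exception was hspa8 at -0.10, but 8 of its 9 unmarked probes were higher, with a median of 0.34. HCD+BBR was higher for 24 of 26 probes, beside 47.4% of all probes. The median was 0.71 over the genes, beside -0.03 for all genes, and 0.46 over the probes, beside -0.02 for all probes. These arrays lay on 1 slide, at positions 4 and 1. Their largest representing-probe differences were 0.88 for dnajb1b, 0.87 for hsp90aa1.1, 0.76 for hsp70l and 0.75 for hsp90ab1. The other unmarked probes of hsp90ab1 lay between -0.16 and 0.13.

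The 8 measured macrophage and neutrophil markers, among them mpeg1.1 and lcp1, had a summed linear signal of 20.6 on the HCD+BBR array, 18.6 on HCD and 13.2 on control, in units of each array's 75th percentile. Their median was 0.88 for HCD+BBR minus control, with all 8 higher, and 0.40 for HCD+BBR minus HCD, with 5 higher and mpx (-0.68), cd74a (-0.18) and lyz (-0.07) lower. For HCD minus control it was 0.52, with all 8 higher. In that comparison 6 of the 9 family genes were higher by representing probe, beside 37.8% of all genes, with a median of 0.29 beside -0.16. Of the 26 family probes 10 were higher, or 38.5% beside 37.4% of all probes, a count that depended on the scaling. All 8 markers were well above background on every array. The 12 hepatocyte markers had medians of 0.10 for HCD+BBR minus control and 0.09 for HCD+BBR minus HCD. The 14 exocrine pancreas markers had a median of -0.27 for HCD minus control, with 1 higher and 13 lower. For HCD+BBR minus HCD their median was 0.12, beside 0.10 for all genes, with 10 higher and 4 lower. For HCD+BBR minus control it was -0.16, with 2 higher and 12 lower. The 10 lens markers summed to 102 on the HCD+BBR array, 100 on HCD and 128 on control. The part of these cell types in the heat shock protein signals was not tested.

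The other genes of the chaperone system were taken from 7 lists, of which 86 measured genes were not among the 9. Of these, 1 was 2-fold higher and 1 lower in HCD against control, or 1.16% each, beside 3.69% higher and 4.07% lower of all genes. In HCD+BBR against HCD 3 were higher and 1 lower, or 3.49% and 1.16%, beside 4.52% and 1.32% of all genes. In HCD+BBR against control 1 was higher and 2 lower, or 1.16% and 2.33%, beside 3.81% and 1.28%. None of these counts is a result about the lists at such numbers. Their medians were -0.08, 0.01 and -0.07 in these comparisons, beside -0.16, 0.10 and -0.03 for all genes.

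The list of cytosolic HSP70 and HSP110 genes had the highest median for HCD+BBR minus HCD, at 0.44 over 9 measured genes. These include the members hsp70l and hspa8. Of the 9, 6 were higher by representing probe, beside 59.4% of all genes, and 2 were 2-fold higher, beside 4.52% of all genes. Those 2 were hspa1b, with -2.86 on the HCD+BBR array, -4.58 on HCD and -3.74 on control, and hspa8b, with -3.46 on HCD+BBR, -4.80 on HCD and -3.96 on control, both HSP70 family genes at low signal. Each was read from 1 unmarked probe, lowest on HCD and highest on HCD+BBR, as both probes of hsp70l were. HCD+BBR over HCD was 3.30-fold for hspa1b and 2.53-fold for hspa8b. The share of all genes 2-fold higher in this comparison fell to 2.17% under quantile normalization, and hspa1b and hspa8b were not read under it. hsp70.3, another HSP70 gene, picked out after its values were seen, gave 0.88 for HCD+BBR minus HCD and 0.87 for HCD+BBR minus control. Its other unmarked probes gave 0.44 and 1.36 for HCD+BBR minus HCD. In the same order they gave 1.79 and 1.24 for HCD+BBR minus control, and disagreed on HCD minus control, at 1.35 and -0.12. The ribosome-linked HSP70 relative hspa14 had the highest HCD minus control of this list by representing probe, at 0.21, with its other probes at -0.003 and 0.11. Other probes of hsp70.3 and hspa4a reached 1.35 and 0.74 in that comparison.

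Among 12 measured mitochondrial chaperone and protease genes the median was 0.32 for HCD+BBR minus control, beside -0.03 for all genes. Of the 12, 10 were higher, beside 46.2% of all genes. The members hspd1 and hspe1 are in this list, and without them its median was 0.27. grpel1, the nucleotide exchange factor of mitochondrial HSP70, read 1.25 on the HCD+BBR array, 0.62 on HCD and -0.15 on control, which is 2.62-fold for HCD+BBR over control and the same stepwise order as hspd1 and hspe1. hspa9, the mitochondrial HSP70 itself, read 0.71 on HCD+BBR, -0.42 on HCD and 0.05 on control, and was 2.19-fold higher in HCD+BBR than in HCD, with its other probes between 0.43 and 0.94 on the log2 scale. clpxa, a subunit of the matrix protease ClpXP, had the lowest HCD minus control of the list by representing probe, at -0.67. Its other probes gave -0.51 and -0.03, and another probe of hspa9 gave -0.82.

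The small heat shock proteins differed in direction. hspb3, a muscle member, read -1.60 on the HCD+BBR array, -0.87 on HCD and -1.92 on control, and thus had the order of hspb1, with HCD 2.07-fold over control. cryaba, an alpha B crystallin that is also a lens protein, read -3.85 on HCD+BBR, -2.32 on HCD and -1.77 on control, with an HCD+BBR minus control of -2.08, and of -2.34 on its other probe. hspb15 had the lowest HCD minus control by representing probe, at -0.84, while another probe of cryaa gave -1.21. Over the 12 measured genes of this list the median was -0.41 for HCD minus control, beside -0.16 for all genes. Of the 12, 4 were higher, beside 37.8% of all genes. One of them, cryaa, is also a lens marker, and all 10 lens markers were lower in HCD, with a median of -0.38. The part of lens in the list median was not tested. In HCD minus control the member hspb1 and hspb3 were the 2 genes 2-fold higher by representing probe, beside 3.69% of all genes, and 0 were 2-fold lower, beside 4.07%.

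The remaining lists held few large differences. Among 25 co-chaperones of HSP90 and HSP70, fkbp5, which regulates the glucocorticoid receptor, read -1.15 on HCD+BBR, -1.21 on HCD and 0.03 on control, so that HCD minus control was -1.24 and HCD+BBR minus control -1.18. It was the only gene of that list past 2-fold by representing probe, though another probe of bag2 gave 1.07 for HCD+BBR minus HCD. ptges3b, a p23 co-chaperone of HSP90, had the highest HCD minus control, at 0.83. The cytosolic J proteins (17 measured) and the TRiC chaperonin and prefoldin genes (13 measured) had no gene past 2-fold in any comparison by representing probe. Another probe of dnajb2, a J protein gene, gave 1.02 for HCD+BBR minus HCD. In HCD minus control by representing probe, dnajb6a was highest among the J proteins at 0.66 and dnajb1a, the paralog of dnajb1b, lowest at -0.89. Their other probes read -0.10 and 0.20, against the sign of the first. The prefoldin subunit gene pfdn2 and the TRiC subunit gene cct5 were by representing probe the highest and lowest of theirs, at 0.22 and -0.44. The other probe read -0.08 for pfdn2 and -0.32 for cct5. Of the 4 measured genes of the HSF family list, hsbp1b, encoding a binding partner of HSF1, and hsf5 were the highest and lowest, at 0.22 and -0.29. The other probes of hsf5 read -0.07 and 0.06.

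**Figure D3:**
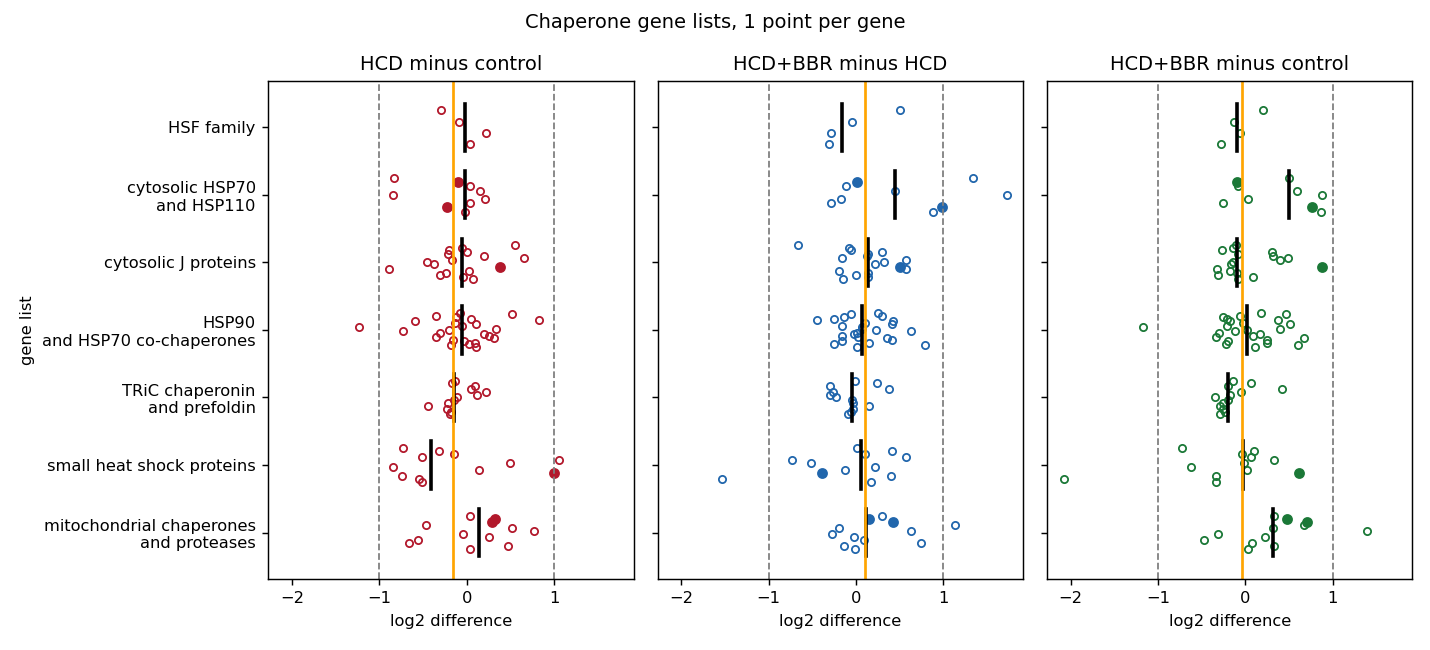
Log2 difference (horizontal axis) of each measured gene in the 7 chaperone lists, 1 point per gene, with the heat shock protein genes of the family filled and the black bar as the list median. Dashed lines mark 2-fold and the orange line the median of all genes. In HCD+BBR minus HCD the HSP70 and HSP110 list has its median at 0.44, while the TRiC and prefoldin list has its median at -0.05.

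**Figure D4:**
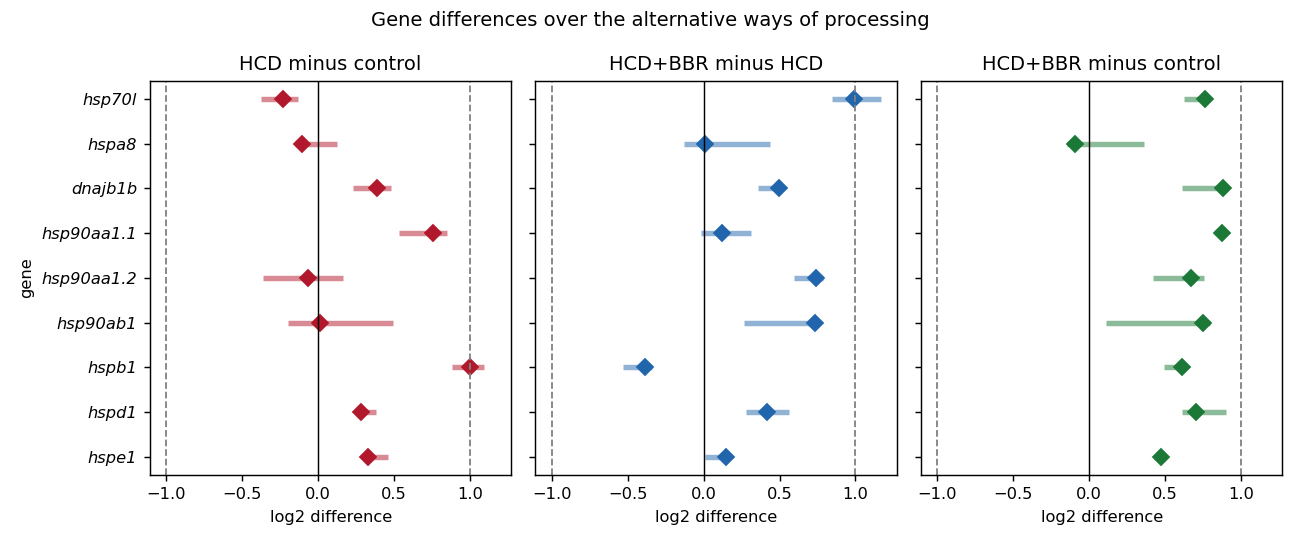
Log2 difference (horizontal axis) of the 9 genes by representing probe (diamond) with the lowest and highest value over the alternative ways of processing (bar), and 2-fold as dashed lines. The bars of hsp70l in HCD+BBR minus HCD (0.85 to 1.17) and of hspb1 in HCD minus control (0.88 to 1.09) cross the 2-fold line, and the bar of hspa8 in HCD+BBR minus HCD (-0.13 to 0.44) crosses 0.

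The way of processing mattered most where the probes of a gene disagreed. In HCD+BBR minus control, all genes but hspa8 kept a positive difference under every alternative run, at 0.11 or more, with hsp90aa1.1 read from 1 probe throughout. In HCD+BBR minus HCD, hsp70l, hsp90aa1.2, hsp90ab1, hspd1 and dnajb1b stayed positive, at 0.27 or more, and hspb1 stayed negative. There hspe1 ranged between 0.01 and 0.16, hspa8 between -0.13 and 0.44 and the unmarked probe of hsp90aa1.1 between -0.02 and 0.31. In HCD minus control, hspb1, hspd1, hspe1 and dnajb1b stayed positive and hsp70l negative, every alternative for hsp90aa1.1 read the same unmarked probe and so says nothing of its marked ones, and the sign of hspa8, hsp90aa1.2 and hsp90ab1 depended on the alternative.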

How the data were processed

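Total RNA of liver was amplified linearly and labelled with Cy3, and 1 Agilent zebrafish array was hybridised for each of the HCD+BBR, HCD and control groups, taken from the labels. The authors extracted spots with Feature Extraction 11.5.1.1 per the file headers (the labels name version 10.7) and deposited processed intensity values, corrected for background. They also deposited a table of log2 values made in GeneSpring. Once each array's 75th percentile was subtracted, the log2 processed intensities equalled them to within an SD of 0.004, with medians of -2.21 for HCD+BBR, -2.35 for HCD and -2.25 for control, and served as an alternative. The deposited marks for background and outlier spots were used as given.

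Here, spots of a probe were averaged, and the array's 75th percentile was subtracted on the log2 scale. Probes with an outlier mark on any array (2677) were left out of counts. A gene was compared where its brightest remaining probe exceeded background clearly on 1 or both arrays of the comparison. Probes were named through their RefSeq accession and the RefSeq gene table, used only for names and neighbours, and 59.8% of probes (26094) received a symbol. Named genes were all members with every probe, list genes past 2-fold in any comparison, the highest and lowest gene of each list in HCD minus control, and the 5 genes nearest to the member with the widest range. The members, lists and rules were chosen with earlier results of these data known. Python 3.11.15, pandas 2.3.3 and numpy 2.4.6 were used, with limma 3.58.1 in R 4.3.3 for the alternatives with quantile, cyclic loess and normexp (offset 50) normalization. The calculation was tested on simulated data. Other alternatives changed the scaling, the probe of a gene, the filter on dim probes, the outlier marks and the threshold. Between spots of a probe the SD was 0.11 for HCD+BBR, 0.21 for HCD and 0.22 for control on the log2 scale (46 to 50 probes), but with 3 arrays the precision is set by their number.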

Additional observations from a re-analysis of the deposited data

How the results depend on the processing

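With 1 array per group no array could be left out, the slide could not be fitted as a block, and no spread between fish can be had. No paired analysis was possible because each group has 1 array and no test was run. Of 324 values of single genes under the alternatives, 315 moved by less than the spread between probes, 9 moved further (hspa8 and hsp90ab1 under the mean or median over probes, hsp90ab1 under normexp), and 17 uncalled values changed sign. Many of the 315 had no room to move. Changing the background filter or keeping outlier spots gave every member its main value again, and the authors' log2 values use the same scaling. The mean or median over probes changes nothing for hspe1, dnajb1b and hsp90aa1.1, each with 1 unmarked probe. The count is therefore not a measure of how stable the values are. The count of members past 2-fold in HCD against control, 1, became 0 under quantile normalization, normexp with quantile normalization, the mean or median over probes, the 75th percentile without outlier spots (chosen after seeing the data) and a 3-fold threshold, and 2 at 1.5-fold. In HCD+BBR against HCD, 0 became 1 under the mean or median over probes and the 75th percentile without outlier spots, and 3 at 1.5-fold. In HCD+BBR against control, 0 became 7 at 1.5-fold. All members past 1.5-fold were higher. At that threshold 9.52% of all genes were higher and 17.8% lower in HCD against control. In HCD+BBR against HCD the shares were 16.0% and 5.03%, and in HCD+BBR against control 10.2% and 6.85%. The median over members stayed within 0.27 to 0.38 for HCD minus control, 0.28 to 0.44 for HCD+BBR minus HCD and 0.49 to 0.73 for HCD+BBR minus control. Scaling by the array median moved the median of all probes for HCD+BBR minus HCD to -0.02, against 0.12 in the values reported. Under it 21 of 26 member probes were above 0 and 22 of 26 above that median, as were 22 of 26 in the values reported.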
